A study of Mus musculus with 6 samples.

Results

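The genes described here are 10 genes of Müller glia homeostasis: Glul, Slc1a3, Kcnj10, Aqp4, Car14, Rlbp1, Gja1, Clu, Dkk3 and Abca8a. They were found among the spots that are not controls by the RefSeq accession of each probe, matched to a gene symbol. A probe without such an accession would not be counted. All 10 were present, with 11 probes on 20 spots of each array, out of 39429 probes and 24078 genes tested. The study injected a compound into the vitreous of the right eye of adult male C57BL/6 mice and collected the retina at day 7. The groups were SH-42 and SH-80, each at 1 µM, and saline (PBS) as the control, with 12 mice per group and 4 retinas in each RNA pool. Each of the 6 arrays, 3 per compound, carried pooled retina from compound-injected eyes in the Cy3 channel and pooled retina from saline-injected eyes in the Cy5 channel, per the labels. The labels name no allele or transgene, and all retinas went through an injection, so no uninjected retina enters any value here. SH-42 and SH-80 are code names, and nothing about their structure is used.

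Each value below is a log2 ratio of the Cy3 (compound) over the Cy5 (saline) signal, so a negative one means a lower signal in compound-injected retina. The dyes were not swapped on any array, so a dye effect and a compound effect cannot be told apart. The deposited value table runs the other way, Cy5 over Cy3, and the direction rests on the labels alone: if the channels were exchanged, every sign in the text would turn. Whether the arrays shared saline pools is not given in the labels. With 12 mice per group, the right eye injected and 4 retinas per pool, saline pools would be fewer than arrays if each retina entered a single pool. The arrays, also those of different compounds, may then not be independent. The p-values measure the spread between arrays, which may be partly technical. In pooled tissue, fewer cells of a type and less RNA per cell cannot be told apart.

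Müller glia are the radial glia of the retina and span it from the vitreous to the photoreceptors. They take up glutamate that neurons release and turn it into glutamine, carry potassium and water away from active synapses, buffer acid, and take part in the recycling of retinoids for cones. When the retina is injured they become reactive, and in rodents the homeostatic genes then often fall while structural proteins such as GFAP rise.

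The stretches before the transcription starts of 5 of these genes are printed. Glul is shown because it is the gene called below, and the others because Rlbp1 with Car14 and Slc1a3 with Kcnj10 were the 2 pairs of these genes with the most similar ratios over the 6 arrays (root mean square difference 0.164 and 0.168 on the log2 scale). RefSeq promoters (build GRCm38.p6) were matched by symbol, with the entries of 1 chromosome left out, for 7 of the 10 genes. Each line gives the 250 bases before the start, on the gene's strand, for Glul (chr1:153899679-153899928, plus strand), Slc1a3 (chr15:8710808-8711057, minus strand), Kcnj10 (chr1:172340960-172341209, plus strand), Car14 (chr3:95904686-95904935, minus strand) and Rlbp1 (chr7:79387028-79387277, minus strand). Capitals mark matches on either strand to ACAAAG or ACAATG (SOX core), TTGGCA (NFI half-site), TGGGAA (RBPJ core), TATAAA or CCAAT, and no matches overlapped.
Glul: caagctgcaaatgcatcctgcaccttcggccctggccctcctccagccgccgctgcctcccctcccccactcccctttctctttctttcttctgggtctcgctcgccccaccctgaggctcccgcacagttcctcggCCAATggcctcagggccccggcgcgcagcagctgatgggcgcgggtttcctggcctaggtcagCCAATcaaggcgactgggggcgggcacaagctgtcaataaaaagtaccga
Slc1a3: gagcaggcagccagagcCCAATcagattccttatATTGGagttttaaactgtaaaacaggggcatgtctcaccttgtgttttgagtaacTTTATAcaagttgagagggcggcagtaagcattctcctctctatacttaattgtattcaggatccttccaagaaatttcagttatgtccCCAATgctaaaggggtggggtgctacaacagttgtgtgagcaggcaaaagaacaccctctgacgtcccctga
Kcnj10: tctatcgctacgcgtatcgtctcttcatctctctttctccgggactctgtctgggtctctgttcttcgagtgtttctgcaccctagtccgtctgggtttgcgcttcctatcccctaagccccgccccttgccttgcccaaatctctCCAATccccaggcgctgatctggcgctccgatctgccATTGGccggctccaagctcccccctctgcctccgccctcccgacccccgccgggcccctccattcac
Car14: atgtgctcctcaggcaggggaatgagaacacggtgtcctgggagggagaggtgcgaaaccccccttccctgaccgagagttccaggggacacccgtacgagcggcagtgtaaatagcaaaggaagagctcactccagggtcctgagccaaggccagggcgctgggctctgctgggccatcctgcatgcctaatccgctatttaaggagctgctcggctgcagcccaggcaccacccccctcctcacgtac
Rlbp1: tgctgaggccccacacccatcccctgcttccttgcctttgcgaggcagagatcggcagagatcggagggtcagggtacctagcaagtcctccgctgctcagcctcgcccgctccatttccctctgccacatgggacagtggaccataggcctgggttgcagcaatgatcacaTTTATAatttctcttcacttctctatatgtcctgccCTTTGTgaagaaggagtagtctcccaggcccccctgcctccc
Glul and Kcnj10 each held 2 matches to CCAAT, which 33.8% of all 32851 such promoters hold at least once. Slc1a3 held 3 matches to CCAAT and 1 to TATAAA, a motif of 12.4% of promoters. Rlbp1 held 1 match to ACAAAG (16.5% of promoters) and 1 to TATAAA. Car14 held no match to any of these letters. ACAATG (10.7% of promoters), TTGGCA (12.3%) and TGGGAA (21.6%) were not matched in the 5 printed stretches, whereas Abca8a, whose stretch is not printed, held 1 TTGGCA and 2 TGGGAA. The matches are a description of letters and are not binding sites.

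The share of spots well above background was 58.3 to 63.1% for Cy3 and 70.9 to 76.7% for Cy5, and no spot was saturated. The array of SH-42 replicate 1 stood apart: its log2 ratios correlated at -0.16 to 0.163 with those of the other arrays, and the other pairs of arrays at 0.471 to 0.866. SH-42 replicates 1 and 2 lay on 1 slide and the other 4 arrays on another, so slide and compound are partly confounded. The 10 rod genes were all above background in both channels on every array. The number of arrays limits the precision of every value.

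Tested in limma with each compound's 3 arrays against 0, none of the 10 genes passed an adjusted p of 0.05 for SH-42, where 0.602% of all genes tested did (145 genes, 0.0581% as higher and 0.544% as lower). 1 gene passed at an unadjusted p of 0.05, Dkk3, where 23.4% of all genes did. For SH-80, 1 of the 10 passed and was lower, Glul, where 14.7% of all genes passed, 10.1% as lower and 4.61% as higher. Glul was also the 1 member with an unadjusted p below 0.05 for SH-80, where 35.5% of all genes had one. Between SH-42 and SH-80, none of the 10 passed, nor did any other gene (percent called 0), and 1 of them had an unadjusted p below 0.05, Glul, against 3.91% of all genes. The median log2 ratio of the 10 genes was -0.22 for SH-42 and 0.053 for SH-80, where the median of all genes was -0.034 for SH-42 and -0.031 for SH-80. The coefficient was below 0 for 9 of 10 genes with SH-42, where 57.0% of all genes were, and for 3 of 10 with SH-80, where 55.6% were.

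The 9 of 10 with SH-42 rested on 1 array. On SH-42 replicate 1 the 10 genes had a median ratio of -0.87 and 9 of them were below 0, with Abca8a the exception at 0.21. On the other 5 arrays their medians lay between -0.040 and 0.052, and between 2 and 5 of them were below 0. For 7 of the 10 genes SH-42 replicate 1 was the lowest of the 6 arrays, which held for 30.5% of all genes, and 7 of the 10 were below -0.5 on it, as were 12.8% of all genes. Without this array 4 of the 10 genes had a negative SH-42 coefficient and 6 a positive one, with a median of 0.041. Median centring of the arrays in place of loess called 7 of the 10 lower for SH-42, when 30.4% of all genes were called lower and the median of all genes was -0.25.

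The calls for SH-42 and SH-80, of these genes and of the lists below, depended on the slide term and on which arrays were used. With slide as a fixed block limma called 0 genes for both compounds, so every call named below was lost, with 5392 genes for SH-42 and 2987 for SH-80 at an unadjusted p below 0.05. Leaving out any 1 SH-80 array also left 0 genes called for SH-80, with 4664 to 5929 at an unadjusted p below 0.05. The SH-80 arrays all lay on the same slide, so the slide term was estimated on the SH-42 arrays alone, replicate 1 among them. That term also shifts the SH-80 coefficients. In the fit without a slide term, SH-42 replicate 1 enters the SH-80 test only through the estimate of spread. Without that array 38.8% of all genes were called for SH-80, 16.0% higher and 22.8% lower. The SH-80 counts without that array given below are to be read against these shares.

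**Figure D1:**
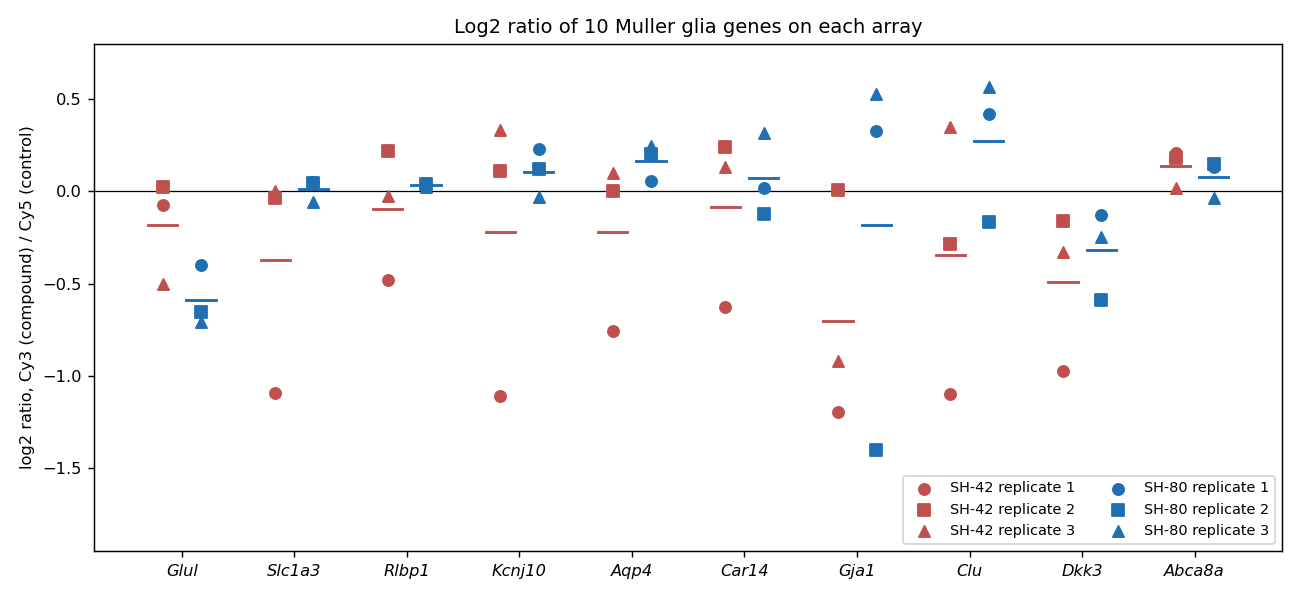
Log2 Cy3 over Cy5 ratios of the 10 genes on each of the 6 arrays, SH-42 left and SH-80 right. On SH-42 replicate 1, 9 of 10 genes lie below 0, and the short lines are the means of 3 arrays. Gja1 is drawn at its ratio although its Cy3 signal was not well above background on any array.

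Glul, which encodes glutamine synthetase and turns glutamate and ammonia into glutamine, gave log2 ratios of -0.072, 0.027 and -0.50 on the 3 SH-42 arrays. On the 3 SH-80 arrays it gave -0.40, -0.65 and -0.71. All 3 SH-80 values lay below 0, and SH-42 replicate 3 lay among them while SH-42 replicates 1 and 2 lay near 0. SH-42 replicates 1 and 2 shared a slide, and SH-42 replicate 3 lay on the other slide with the SH-80 arrays. The Glul values thus split by slide, and whether slide or compound accounts for the split was not tested. The compound (Cy3) log2 signal was 14.44 to 14.59 over the 6 arrays, and the saline (Cy5) signal was 14.52 to 15.28, highest on SH-80 replicate 3. The SH-42 coefficient was -0.18 ± 0.116 (SE, 3 arrays, limma adjusted p = 0.366). The SH-80 coefficient was -0.59 ± 0.116, a 1.50-fold lower signal in SH-80 than in saline (limma adjusted p = 0.0324). The SH-80 call was lost when any 1 SH-80 array was left out (-0.53 to -0.68, limma adjusted p 0.126 to 0.203). It was also lost under scale normalization and in the deposited value table, where the coefficient was -0.48 and -0.53. With slide as a fixed block, whose slide term comes from the SH-42 arrays alone, the coefficient was -0.35 (limma adjusted p = 0.373).

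Slc1a3, the glutamate-aspartate transporter of glia, gave -1.09, -0.035 and 0.0046 with SH-42 and 0.050, 0.048 and -0.055 with SH-80. The low value is SH-42 replicate 1 alone. Its compound (Cy3) signal was 11.53 to 11.61 over the 6 arrays, while the saline (Cy5) signal was 12.69 on that array and 11.48 to 11.64 on the others. The SH-42 coefficient was -0.37 ± 0.209 (limma adjusted p = 0.314), and that for SH-80 was 0.015 ± 0.209 (limma adjusted p = 0.968). Leaving that array out gave an SH-42 coefficient of -0.015.

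The other 10 genes of glutamate and ammonia handling held 1 call for each compound, and the same gene carried both. Both calls were lower, as were 0.544% of all genes for SH-42 and 10.1% for SH-80. Slc1a4, which carries neutral amino acids across the membrane, had ratios of -0.66, -0.61 and -0.70 with SH-42 and -0.63, -0.58 and -0.78 with SH-80. The 6 values lay close together, and both compounds' ranges overlapped. The coefficient was -0.66 ± 0.0605 for both compounds (limma adjusted p = 0.0291 for SH-42 and 0.0150 for SH-80), and SH-42 minus SH-80 was 0.0064 with a 95% interval of -0.20 to 0.21. With slide as a fixed block the coefficients were -0.67 for SH-42 and -0.63 for SH-80 (limma adjusted p 0.0913 and 0.345). The list's median was 0.048 with SH-42 and -0.048 with SH-80. Without SH-42 replicate 1, 1 gene of the list was called higher and 2 lower for SH-80, where 16.0% and 22.8% of all genes were.

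Kcnj10 encodes Kir4.1, the channel through which Müller cells release potassium. It gave -1.11, 0.11 and 0.33 with SH-42 and 0.23, 0.12 and -0.032 with SH-80. SH-42 replicate 1 was the low value again, and 4 of the other 5 arrays lay above 0. The coefficient was -0.22 ± 0.260 for SH-42 (limma adjusted p = 0.613) and 0.11 ± 0.260 for SH-80 (limma adjusted p = 0.801). When that array was left out the SH-42 coefficient was 0.22.

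Aqp4, the water channel of Müller endfeet, was read by 2 probes that disagree. The brighter one gave -0.76, 0.0015 and 0.099 with SH-42 and 0.054, 0.20 and 0.24 with SH-80. The dimmer one gave -0.63, -0.41 and -0.44 with SH-42 and -0.42, -0.53 and -0.34 with SH-80. All 6 values of the dimmer probe lay below 0, whereas 5 of 6 of the brighter one lay above 0. The mean was -0.49 for SH-42 and -0.43 for SH-80 by the dimmer probe. The brighter probe, which carries the test, gave -0.22 ± 0.163 for SH-42 (limma adjusted p = 0.431) and 0.17 ± 0.163 for SH-80 (limma adjusted p = 0.499). Which probe reports the gene was not tested.

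**Figure D2:**
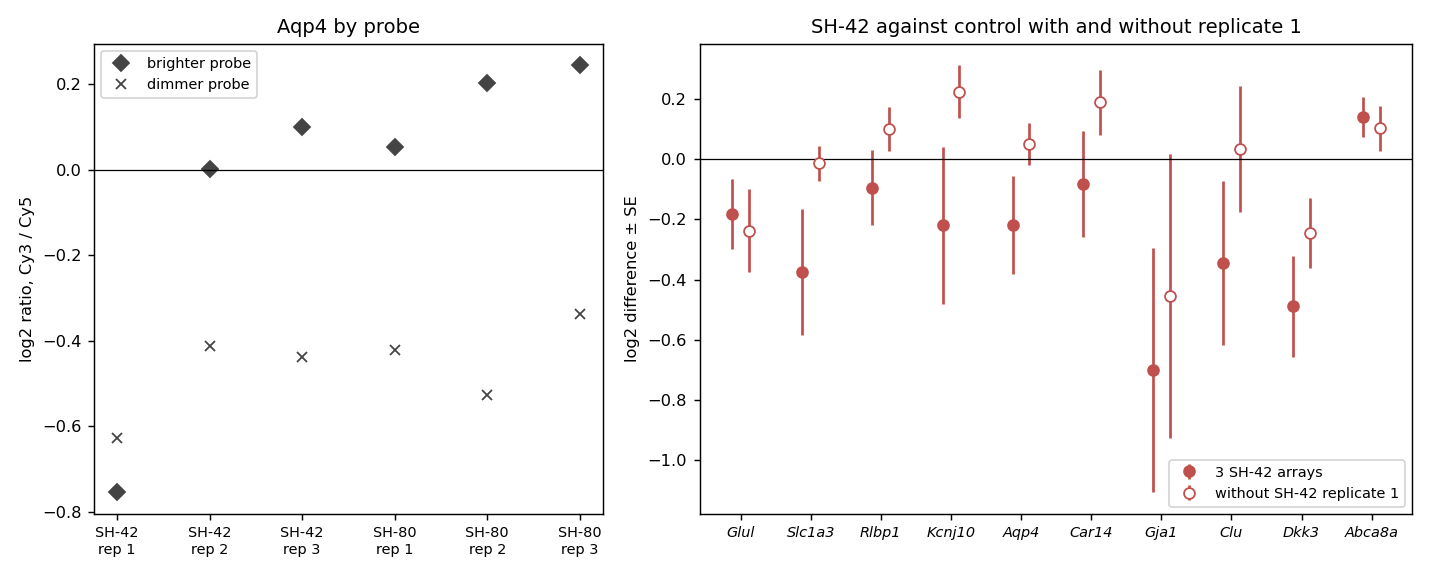
The left panel plots the log2 ratios of both Aqp4 probes on the 6 arrays, and the right panel the coefficient of each gene with and without SH-42 replicate 1. The dimmer probe lies below 0 on all 6 arrays and the brighter one on 1.

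Car14, a membrane carbonic anhydrase that helps the retina handle acid, gave -0.63, 0.24 and 0.13 with SH-42 and 0.016, -0.12 and 0.32 with SH-80. Its values straddled 0 in both compounds. The coefficients were -0.083 ± 0.177 for SH-42 (limma adjusted p = 0.782) and 0.071 ± 0.177 for SH-80 (limma adjusted p = 0.804).

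Among the other 15 measured genes of potassium, water, acid-base and membrane scaffold, 0 passed for SH-42 and 2 for SH-80, both lower. For SH-80, 10.1% of all genes were called lower. Atp1b2, a sodium pump subunit, had -0.39, -0.39 and -0.59 with SH-80, and its coefficient was -0.46 ± 0.0786 (limma adjusted p = 0.0286). With SH-42 it gave -0.076, -0.39 and -0.25 and did not pass (limma adjusted p = 0.164). The SH-80 calls of this list were 2 higher and 5 lower without SH-42 replicate 1, where 16.0% and 22.8% of all genes were.

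Rlbp1 encodes the retinaldehyde-binding protein of Müller glia and pigment epithelium. It gave -0.48, 0.22 and -0.026 with SH-42 and 0.038, 0.041 and 0.024 with SH-80. The 3 SH-80 values were nearly equal, and the SH-42 values lay on both sides of 0. The coefficient was -0.095 ± 0.125 for SH-42 (limma adjusted p = 0.650) and 0.034 ± 0.125 for SH-80 (limma adjusted p = 0.870). Of the other 8 genes of retinoid handling, 2 passed for SH-80 and both were higher, where 4.61% of all genes were called higher. Degs1, a lipid desaturase that has been proposed as a retinol isomerase of Müller glia, had 0.52 ± 0.125 (limma adjusted p = 0.0448), and Rdh11, a retinol dehydrogenase, had 0.36 ± 0.0698 (limma adjusted p = 0.0314). The SH-42 coefficients of these genes, 0.21 for Degs1 and 0.37 for Rdh11, did not pass (limma adjusted p 0.339 and 0.0921). When SH-42 replicate 1 was left out, 4 genes of the list were called higher for SH-80, where 16.0% of all genes were.

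Gja1 encodes connexin 43, the gap junction protein of astrocytes and Müller cells. Its log2 ratios were -1.19, 0.0099 and -0.92 with SH-42 and 0.33, -1.40 and 0.53 with SH-80. Both compounds held arrays above and below 0. The Cy3 signal was not well above background on any of the 6 arrays, and the Cy5 signal was on all 6, so these ratios are not exact. The mean log2 signal was 7.34 in Cy3 and 8.04 in Cy5 for SH-42, and 7.37 in Cy3 and 7.56 in Cy5 for SH-80. Cy3 was also taken on each array as the higher of the probe's own signal and the lowest signal well above background. On that basis the mean over the SH-42 arrays was 1.61-fold lower in Cy3 than in Cy5. This is not a minimum, because the channels were nearly equal on replicate 2. The interval of the SH-42 coefficient, -1.68 to 0.28, also included 0. For SH-80, Cy5 lay below Cy3 on 2 of 3 arrays, so no such fold is given. Neither coefficient passed (-0.70 ± 0.404 for SH-42, limma adjusted p = 0.327, and -0.18 ± 0.404 for SH-80, limma adjusted p = 0.781). The probe was printed as 10 spots, and 1 spot was left out on 3 arrays.

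**Figure D3:**
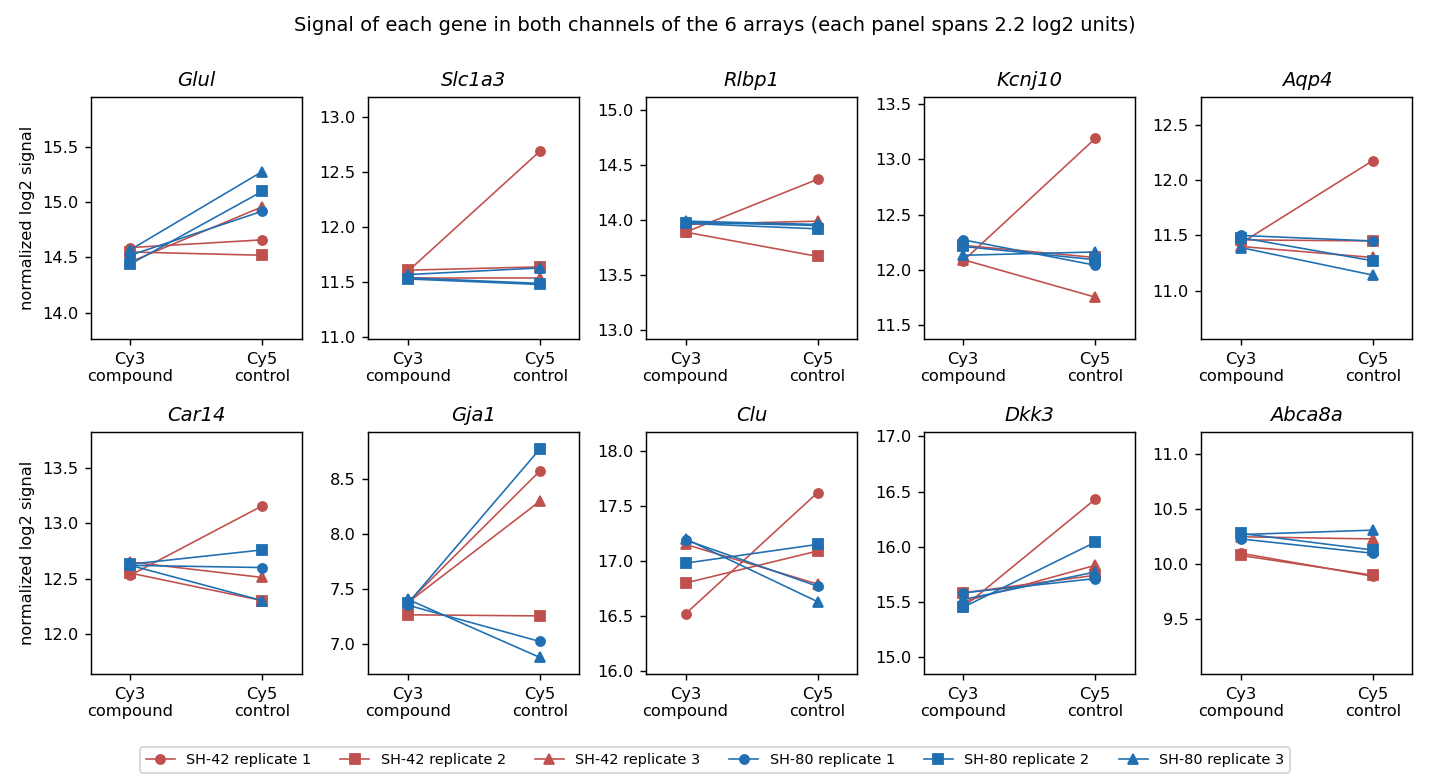
Normalized log2 Cy3 and Cy5 signals of the 10 genes by array. The Cy3 signals vary over 0.075 to 0.67 log2 units and the Cy5 signals over 0.42 to 1.89.

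The spread lay mainly in the saline channel: for all 10 genes the SD over the 6 arrays was larger in Cy5 than in Cy3, as it was for 78.6% of all genes. The median SD of the 10 genes was 0.0538 in Cy3 and 0.341 in Cy5, where the medians over all genes were 0.0683 in Cy3 and 0.142 in Cy5. In Cy3 none of the 10 genes had 1 array far from the other 5, and 7.48% of all genes did. In Cy5 it was 3 of the 10 (Slc1a3, Aqp4 and Kcnj10) and 22.6% of all genes. By the labels, Cy3 held retina of either compound and Cy5 saline-injected retina alone. What makes the Cy5 channel vary, and whether the channel labels hold, was not tested.

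Clu encodes clusterin, a secreted chaperone. Its ratios were -1.10, -0.29 and 0.35 with SH-42 and 0.42, -0.17 and 0.57 with SH-80. The compounds overlapped, and each held values on both sides of 0. Clu was the gene whose compound (Cy3) signal varied most, from 16.52 on SH-42 replicate 1 up to 17.20 on SH-80 replicate 3. The coefficients were -0.34 ± 0.272 for SH-42 (limma adjusted p = 0.455) and 0.27 ± 0.272 for SH-80 (limma adjusted p = 0.506).

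Dkk3, a secreted protein of the Dickkopf family, gave -0.98, -0.16 and -0.33 with SH-42 and -0.13, -0.59 and -0.25 with SH-80. It was the only member below 0 on all 6 arrays by the probe that stands for the gene. The same sign on all 6 arrays held for 34.0% of all genes tested. The SH-42 coefficient was -0.49 ± 0.167, with a 95% interval of -0.89 to -0.084 (limma adjusted p = 0.170). The SH-80 coefficient was -0.32 ± 0.167 (limma adjusted p = 0.222). Without SH-42 replicate 1 the SH-42 coefficient was -0.25, with an interval of -0.53 to 0.035, and the SH-80 coefficient passed (limma adjusted p = 0.0401), as did 38.8% of all genes.

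Abca8a, an ABC transporter, gave 0.21, 0.18 and 0.021 with SH-42 and 0.13, 0.15 and -0.036 with SH-80. Its 6 ratios had the narrowest range of the 10 genes, 0.25. The coefficients were 0.14 ± 0.0667 for SH-42 (limma adjusted p = 0.262) and 0.081 ± 0.0667 for SH-80 (limma adjusted p = 0.423).

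Among the other 14 genes of secreted and lipid proteins, none passed for either compound. Ceruloplasmin (Cp), which oxidises iron, had the SH-80 coefficient 1.56 ± 0.491 (limma adjusted p = 0.0767), and Igfbp5, an insulin-like growth factor binding protein, had the SH-42 coefficient -0.77 ± 0.303 (limma adjusted p = 0.200), which was -0.37 without SH-42 replicate 1. In the fit that leaves out SH-42 replicate 1, 7 of the 14 were called higher for SH-80, where 16.0% of all genes were.

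**Figure D4:**
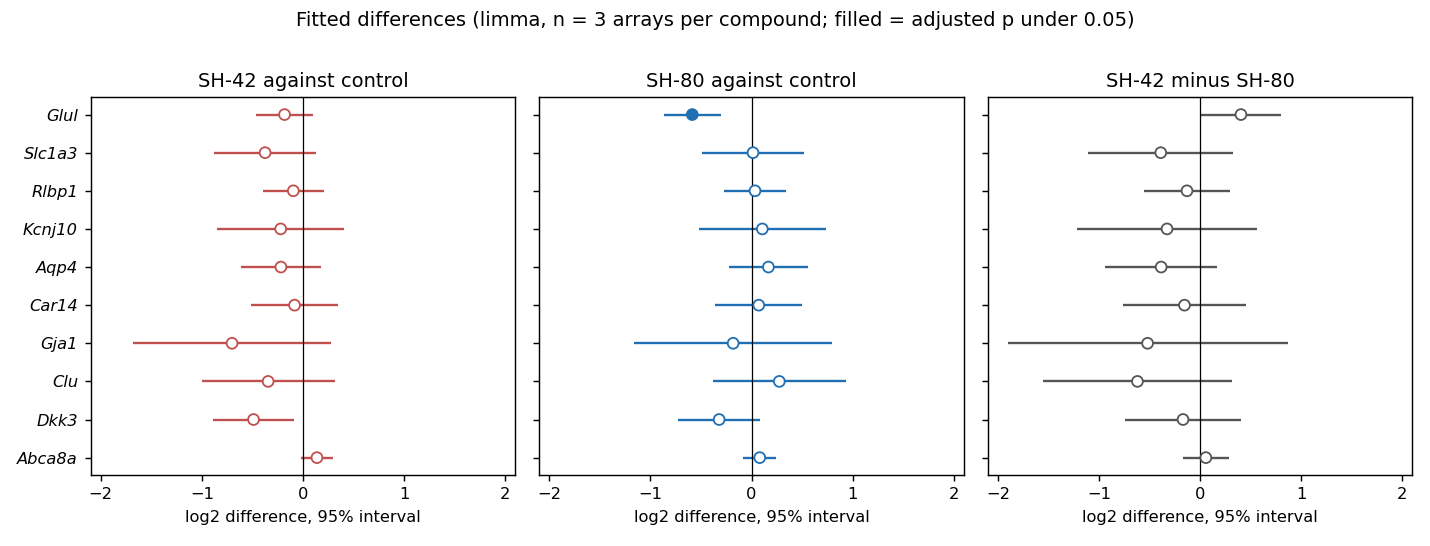
Coefficients of the 10 genes with 95% intervals for SH-42, SH-80 and SH-42 minus SH-80. The SH-80 interval of Glul lies below 0, and the SH-42 interval of Dkk3 does too.

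None of the 12 transcription factors of Müller identity passed. Hes5, a Notch target, had the SH-42 coefficient 0.50 ± 0.139 (limma adjusted p = 0.146), and Nfib, a nuclear factor I protein, had -0.53 ± 0.211 (limma adjusted p = 0.203). Without SH-42 replicate 1 these were 0.29 for Hes5 and -0.20 for Nfib, and the other 4 Nfib probes had SH-42 means of -0.19 to -0.47. Of the 12 genes of metabolism and surface, 2 passed for SH-80 and both were lower, where 10.1% of all genes were called lower. Pygm, the muscle isoform of glycogen phosphorylase, had -0.41 ± 0.0637 (limma adjusted p = 0.0266), and Slc16a1, a lactate transporter, had -0.35 ± 0.0718 (limma adjusted p = 0.0335). Without SH-42 replicate 1 the SH-80 counts were 2 higher and 1 lower for the transcription factors. For metabolism and surface they were 1 higher and 3 lower. In that fit 16.0% of all genes were called higher and 22.8% lower.

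The gliosis list was low on SH-42 replicate 1 too. Its median ratio was -1.81, -0.19 and 1.104 on SH-42 replicates 1, 2 and 3, and 0.61 to 1.09 on the SH-80 arrays. Its median coefficient was -0.37 for SH-42 and 0.70 for SH-80. For SH-80, 3 of its 16 genes were called and all were higher: the lipocalin Lcn2 (1.89), the cytokine Lif (0.79) and the metalloreductase Steap4, with limma adjusted p of 0.0429 to 0.0456. In this fit 4.61% of all genes were called higher for SH-80. The Cy5 signal of Steap4 was well above background on 3 of the 6 arrays, so no fold is given for it. The structural proteins Gfap (1.29 ± 0.534, limma adjusted p = 0.142) and Vim (0.50 ± 0.402, limma adjusted p = 0.416) did not pass. Without SH-42 replicate 1, 7 of the 16 were called higher for SH-80, Gfap among them, where 16.0% of all genes were.

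The microglia list, all 11 genes above background in both channels on all arrays, had a median of -1.65 on SH-42 replicate 1. None of them passed for either compound, and without SH-42 replicate 1, 10 of the 11 were called higher for SH-80, where 16.0% of all genes were. Summed over the list, Cy3 signals of the 6 arrays spanned 29257 to 31680 and Cy5 signals 12406 to 88638. On SH-42 replicate 1 bipolar, amacrine, ganglion and rod genes stood at 1.096, 1.034, 0.933 and 0.498. On that array, where the Gja1 ratio was -1.19, skeletal muscle genes stood at -2.50 and lens genes at 1.465. On SH-80 replicate 2, where the Gja1 ratio was -1.40 with Cy3 not well above background, skeletal muscle genes stood at -1.82 and lens genes at -1.72. On SH-42 replicate 3, where that ratio was -0.92, they stood at 0.42 and -1.10. The Gja1 ratio lay above 0 on SH-42 replicate 2 and SH-80 replicates 1 and 3. There skeletal muscle genes stood at 0.060, 0.47 and 0.34, and lens genes at 0.074, 2.74 and 2.57. Astrocyte genes stood at -0.94 on SH-42 replicate 1 and 0.28 on SH-80 replicate 2. Of the cell type lists, rod, bipolar, amacrine, ganglion and skeletal muscle genes held no call. For SH-80 there was 1 call lower of 6 astrocyte genes (Pax2, whose Cy3 signal was not well above background on any array), 1 higher of 6 pigment epithelium genes (Rgr, 0.67), 2 higher of 10 lens genes (Crygc, 3.20, and Bfsp1, 2.34), and 1 higher (Cldn5, 0.50) and 1 lower (Pecam1, -0.26) of 6 endothelium genes. In the same fit 4.61% of all genes were called higher for SH-80 and 10.1% lower. What part these other cells play in the ratios of the 10 genes was not tested.

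**Figure D5:**
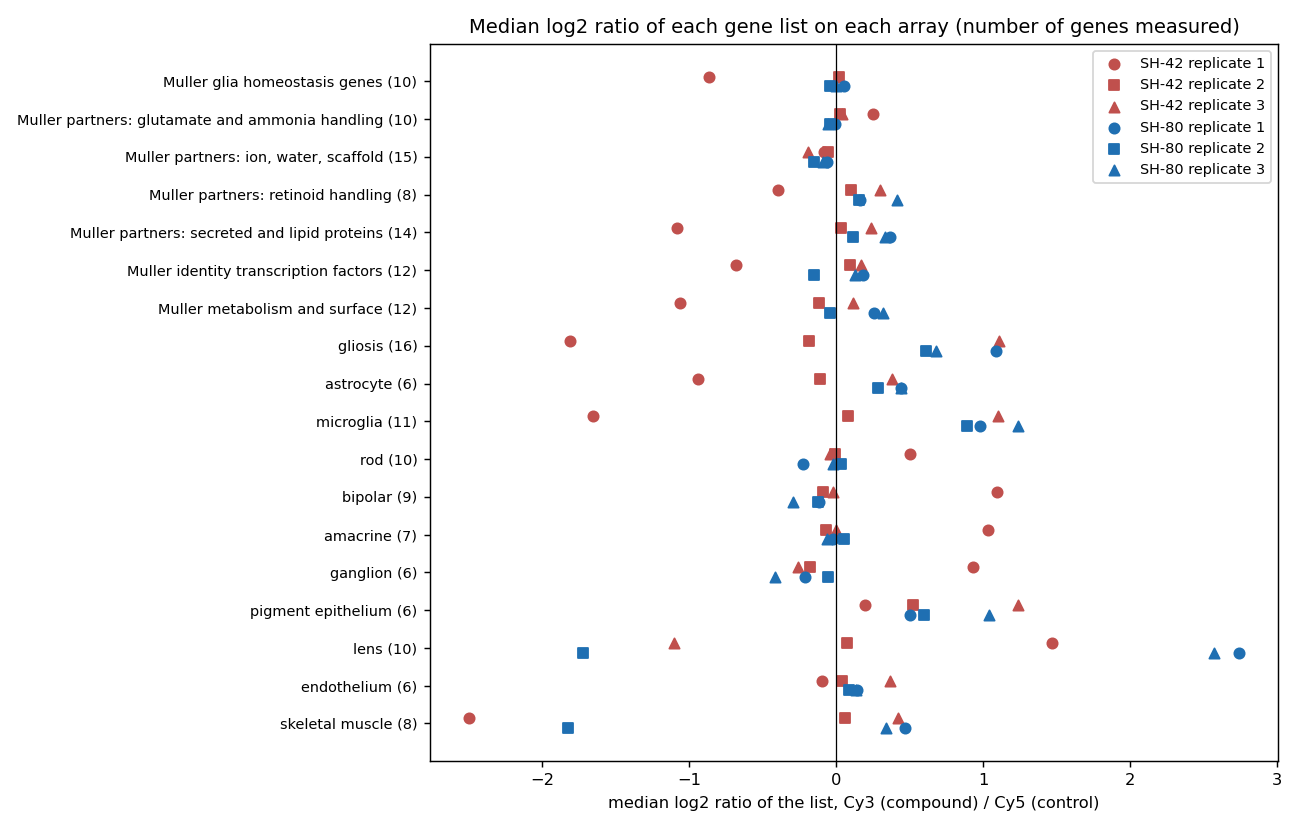
Median log2 ratio of each gene list on each array. On SH-42 replicate 1 the gliosis, microglia and muscle lists are low and the neuron lists high, while the 10 genes stand at -0.87.

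SH-42 and SH-80, given at the same dose and time, were compared directly on the 10 genes as 1 pair of compounds. Glul had the difference 0.40 ± 0.165 (95% interval 0.0054 to 0.80, limma adjusted p = 0.691), so its ratio was higher with SH-42, and 8 of the 10 genes had a negative difference, against 46.4% of all genes. Without SH-42 replicate 1, 4 of the 10 were negative and the median difference was 0.042. Clu had -0.62 (95% interval -1.55 to 0.31) and Gja1 -0.52 (95% interval -1.90 to 0.86). The interval of Abca8a was the narrowest, -0.17 to 0.29, and those of Slc1a3 (-1.10 to 0.33) and Kcnj10 (-1.22 to 0.56) were wider. For none of the 10 did the SH-42 and SH-80 ratios fail to overlap, as they did for 13.5% of all genes. Within the slide that held both compounds, the difference of SH-42 replicate 3 from the 3 SH-80 arrays was 0.084 for Glul, 0.23 for Kcnj10, 0.076 for Clu and -0.74 for Gja1. With intervals of this width the values do not show that the compounds act alike.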

How the data were processed

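2-colour Agilent arrays were read by the submitters' scanner software, Agilent Feature Extraction, version 11.0.1.1 per the file headers and 9.3.2.1 per the submitters' processing notes. The deposited intensity values are median pixel intensities of spot and surrounding background in 2 channels, Cy3 for SH-42 or SH-80 and Cy5 for control, per the labels. The deposited log2 values of the authors' table run as Cy5 over Cy3, and its columns have medians of -0.0531, -0.0606 and -0.0612 (SH-42) and -0.0611, -0.0464 and -0.0754 (SH-80), and their centring is not given in the sources used here. Spots flagged as outliers were left out. The intensities were background-corrected (normexp, offset 50), normalized within arrays by loess, and averaged over replicate spots, and for per-channel signals scaled between arrays (Aquantile). A probe was kept if Cy3 or Cy5 was well above background on 3 or more arrays and 2 or more arrays of each compound had a value. This removed 9972 probes, and 26055 probes (66.1%) had a symbol. The brightest probe stood for each gene. Coefficients for both compounds and their difference came from 1 limma fit over the 6 arrays (limma 3.58.1, R 4.3.3), with Benjamini-Hochberg adjustment over 24078 genes and a threshold of 0.05. The procedure was tested on simulated data with independent normal noise for each gene. These held no slide effect and no array that stands apart, so they do not show how it behaves with either. The members and 17 other gene lists (176 genes with the members) were chosen with earlier results of these data known. All members are named. Of each other list, genes past an adjusted p of 0.05 in any comparison are named, up to 4 by smallest p, or the 2 of smallest p in a Müller list without one. Gfap and Vim are named too. The genes nearest in ratio to the member of widest range, Gja1, were to be named but are left out, because its Cy3 signal was not well above background. The result of 1 other gene is not reported here. Alternatives, given in the closing section, changed background correction, normalization, filter, probe rule, slide, weights and arrays.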

Additional observations from a re-analysis of the deposited data

Results flagged for a closer look

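Of the signals of the 10 genes, 3 had 1 array far from the other 5, and each was the saline (Cy5) signal of the array of SH-42 replicate 1. Slc1a3 had a normalized log2 signal of 12.69 there and 11.48 to 11.64 on the other arrays. Aqp4, by its brighter probe, had 12.18 there and 11.14 to 11.45 on the others. Kcnj10 had 13.19 there and 11.75 to 12.16 on the others. None of the 10 compound (Cy3) signals stood apart in this way. Of all genes, 22.6% had 1 Cy5 signal far from the others, a share near the 3 of 10, and 7.48% had 1 Cy3 signal. By this count the 10 genes are not set apart from the rest. The cutoff is nominally passed by about 1 in 20 groups of independent normal values, a rate not checked for these signals. What sets the saline channel of this array apart was not tested.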

How the results depend on the processing

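Each coefficient was refitted under up to 21 other settings. For SH-42, 193 of 209 refitted coefficients kept their sign, for SH-80 184 of 209, and for the difference 180 of 199. The strict probe filter left out Gja1, so it gave no value there. The cause of the changes below was not tested. Median centring without loess called 7 of the 10 genes for SH-42 (Glul -0.82, Rlbp1 -0.68, Slc1a3 -0.83, Aqp4 -0.67, Clu -1.15, Car14 -0.59 and Dkk3 -1.20) and 2 for SH-80 (37.6% and 15.1% of all genes), and the median of all genes was then -0.25 for SH-42 and -0.15 for SH-80. Under it signs turned for Abca8a (SH-42 -0.20, SH-80 -0.15, difference -0.048) and, with SH-80, for Aqp4 (-0.10), Car14 (-0.23), Clu (-0.19), Gja1 (0.016), Kcnj10 (-0.18), Rlbp1 (-0.30) and Slc1a3 (-0.26). For SH-80, 0 of the 10 genes were called with scale normalization, the deposited value table, slide as a fixed block and the replicate block, when 722, 4855, 0 and 0 of all genes were. It was 2 (Glul and Dkk3) with array weights, when 42.0% of all genes were called, and with slide 2 arrays only and arrays of 1 compound only, when 38.2% were. Glul then had -0.48, -0.53, -0.35 and -0.59 in the first 4 of these settings (limma adjusted p 0.0644, 0.0506, 0.373 and 0.0819). The replicate numbers do not pair the arrays: deviations of same-numbered arrays correlated at -0.15, -0.43 and 0.18, and 1 of 6 arrays correlated best with its own number. With the replicate block limma called 0 members and 0 genes in all 3 comparisons, with 4209 genes for SH-42, 7155 for SH-80 and 707 for the difference at an unadjusted p below 0.05.

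Other signs turned as follows. With array weights, SH-42 gave Car14 0.15, Kcnj10 0.11 and Rlbp1 0.096, and the difference gave Car14 0.11, Dkk3 0.048 and Rlbp1 0.060. With scale normalization, SH-42 gave Car14 0.16 and Rlbp1 0.12, and the difference Car14 0.11 and Rlbp1 0.093. With slide 2 arrays only, SH-42 gave Aqp4 0.099, Car14 0.13, Clu 0.35, Kcnj10 0.33 and Slc1a3 0.0046. There and with slide as a fixed block the difference gave Abca8a -0.060, Car14 0.062, Clu 0.076 and Kcnj10 0.23. With slide as a fixed block SH-80 gave Aqp4 -0.071, Car14 -0.091, Clu -0.25, Kcnj10 -0.31, Rlbp1 -0.018 and Slc1a3 -0.27. The SH-80 arrays all lay on the same slide, so this shift came from a slide term estimated on the SH-42 arrays alone. The SH-80 ratios themselves did not change. The deposited value table gave Gja1 0.20, Rlbp1 -0.048 and Slc1a3 -0.020 for SH-80. Processed signals gave Abca8a -0.046, Rlbp1 -0.12 and Slc1a3 -0.087 for SH-80. The mean of probes gave Aqp4 -0.13 for SH-80.

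Leaving out 1 array gave 0 to 2 members called for SH-80. For SH-42 the coefficients then ran from -0.25 to 0.098 for Rlbp1, -0.38 to 0.050 for Aqp4, -0.50 to 0.22 for Kcnj10, -0.69 to 0.031 for Clu and -0.25 to 0.19 for Car14. For SH-80 they ran from -0.0034 to 0.049 for Slc1a3, -0.54 to 0.43 for Gja1 and -0.053 to 0.17 for Car14. For the difference they ran from -0.29 to 0.063 for Rlbp1, -0.61 to 0.12 for Kcnj10, -0.32 to 0.12 for Car14, -0.33 to 0.075 for Dkk3 and -0.0014 to 0.12 for Abca8a. Signal over background limits Gja1, whose Cy3 signal was not well above background on any array. The list counts and other genes' values without SH-42 replicate 1 or with the slide term were chosen after seeing the data. The number of all genes called ranged from 0 to 9061 for SH-42 and from 0 to 10104 for SH-80.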
